A study of Homo sapiens with 8 samples.

Results

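The STAT and IRF transcription factors described here are 9 genes of interferon and cytokine signalling, taken by symbol from a table of 17056 genes: STAT2, STAT3, STAT6, IRF1, IRF2, IRF3, IRF7, IRF9 and the IRF2 partner IRF2BP2. All 9 were found, and all 9 had a mean of at least 1 FPKM over the libraries, the filter for testing. FPKM count fragments per length of transcript and per size of library. A comparison between genes holds only as far as the lengths used, which the sources used here do not give. The libraries came from A549, an established human lung adenocarcinoma line, with 2 libraries in each of 4 groups. The groups were a vector control (vector), cells overexpressing AFAP1-AS1, a long non-coding RNA (OE), a negative control for the knockdown (ASONC) and AFAP1-AS1 knockdown (ASO). ASO is the usual abbreviation of antisense oligonucleotide. The sources used here do not give the vector, the way of delivery, the dose or the time, and no untreated cells were analysed here. Every value comes from a single cell line. AFAP1-AS1 itself was not analysed here, so its level could not be set beside the labels. Nothing in the labels says that the 2 libraries of a group came from separate cultures. The p-values therefore reflect only how far the libraries of a group lie apart, which may be a technical spread.

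STAT proteins wait in the cytoplasm until a Janus kinase bound to a cytokine receptor phosphorylates them, after which they pair, enter the nucleus and bind DNA. Type I and type III interferons act through a complex named ISGF3, which holds STAT2 and the DNA-binding subunit IRF9 and reads the interferon-stimulated response element (ISRE) of antiviral genes. IRF3 and IRF7 act a step earlier: sensors of foreign nucleic acid lead to their phosphorylation, and they then switch on the interferon genes, IRF3 being made constitutively and IRF7 being itself an interferon-induced gene. IRF1 activates genes of antigen presentation after interferon gamma, and IRF2 competes with it for the same DNA. IRF2BP2 was found as a corepressor that binds IRF2. STAT3 serves the IL-6 family of cytokines and STAT6 serves IL-4 and IL-13.

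The promoters of 6 of the 9 genes had an entry in the RefSeq promoter table used here (GRCh38.p14, 250 bases before to 50 after the start): STAT2, STAT3, STAT6, IRF1, IRF9 and IRF2BP2. The 3 shown belong to factors whose levels fell in the knockdown against the knockdown control, though IRF1 was higher there than in vector. The windows were searched on both strands for the ISRE core, GAAANNGAA, and for the STAT dimer site known as GAS, TTCNNNGAA. The STAT6 form of GAS with a wider gap, TTCNNNNGAA, was searched as well. Capitals mark the matches, and each window is written along the strand of its gene.
IRF9, chr14:24161015-24161314, plus strand: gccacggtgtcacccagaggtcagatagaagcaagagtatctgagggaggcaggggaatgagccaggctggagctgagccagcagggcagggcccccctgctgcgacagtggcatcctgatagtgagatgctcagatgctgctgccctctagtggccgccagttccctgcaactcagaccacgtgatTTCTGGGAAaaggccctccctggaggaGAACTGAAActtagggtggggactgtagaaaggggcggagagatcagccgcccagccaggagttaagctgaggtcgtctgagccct
IRF1, chr5:132490724-132491023, minus strand: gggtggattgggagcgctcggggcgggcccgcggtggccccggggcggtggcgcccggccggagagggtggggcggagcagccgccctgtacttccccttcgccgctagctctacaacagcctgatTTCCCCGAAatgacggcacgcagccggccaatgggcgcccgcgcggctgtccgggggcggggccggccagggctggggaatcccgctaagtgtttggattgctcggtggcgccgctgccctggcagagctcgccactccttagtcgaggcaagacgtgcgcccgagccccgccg
STAT2, chr12:56360058-56360357, minus strand: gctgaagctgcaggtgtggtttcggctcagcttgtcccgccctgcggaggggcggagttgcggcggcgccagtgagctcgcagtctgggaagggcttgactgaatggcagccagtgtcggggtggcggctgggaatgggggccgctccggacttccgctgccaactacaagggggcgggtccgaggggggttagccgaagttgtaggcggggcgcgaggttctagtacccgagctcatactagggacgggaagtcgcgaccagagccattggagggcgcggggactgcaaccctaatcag
The IRF9 window held a GAS match whose first base lies at -63 from the start, and a mirrored form of the IRF core, GAANNGAAA, at -36. The IRF1 window held a GAS match at -124. No window of the 6 genes held the ISRE core or the same core with 1 more A at its end, and the STAT2 window held none of the motifs searched. GAS matches lie in 7.657% of all 35116 promoter windows of this length, the STAT6 form in 6.439%, the ISRE core in 8.107%, its longer form in 3.574% and the mirrored core in 7.663%. The mirrored core overlaps neither GAS match. A match is a run of letters and not a measured binding site, and binding was not analysed here.

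The libraries held between 33359120 and 37172055 reads, recovered from the FPKM steps. The number of genes at 0 was 1435 and 1341 in the knockdown control and between 2205 and 2327 in the other groups. FPKM summed to between 371927 and 379733 in the vector and overexpression libraries and to between 421591 and 437924 in the knockdown control and knockdown libraries. Of 9 epithelial and A549 markers, KRT8, KRT18, KRT7, AKR1B10, ALDH1A1 and NQO1 were at 574.5 FPKM or more in every library, while KRT19, EPCAM and CDH1 were at or below 4.92 FPKM. Among blood cell markers, PTPRC was at 0 in 7 of the 8 libraries, while CD14 was at 1.572 to 2.7 FPKM and at 0 in none. Fibroblast and endothelial markers were low, the highest of these being COL1A1 at up to 2.499 FPKM. In bulk RNA such as this, fewer cells making a transcript and less transcript per cell cannot be told apart.

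By FPKM, STAT3 was the most abundant of the 9 factors in vector cells and IRF2 the least. STAT3 had 54.7 and 55.7 FPKM in the vector libraries, which ranked it at percentile 93.2 of the 17056 genes. STAT6 followed with 27.2 and 26.2 FPKM. IRF9, IRF3 and IRF2BP2 came next, with means of 23.4, 23 and 22.9 FPKM, and their libraries overlapped, so these neighbours did not differ beyond their spread. IRF1 had 9.86 and 8.93 FPKM. IRF7, with 6.175 and 8.43 FPKM, and STAT2, with 6.17 and 5.77 FPKM, lay so close that the order of their nearest libraries rests on a difference smaller than the spread of either gene. IRF2 had 2.36 and 2.24 FPKM, at percentile 46.5. These values rest on 698 and 725 reads of IRF2, more than the 409 and 610 of IRF7. The longest annotated transcripts of IRF2 and IRF7 have 2303 and 2051 bases. The place of IRF2 as the least abundant therefore depends on the lengths used for FPKM.

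**Figure D1:**
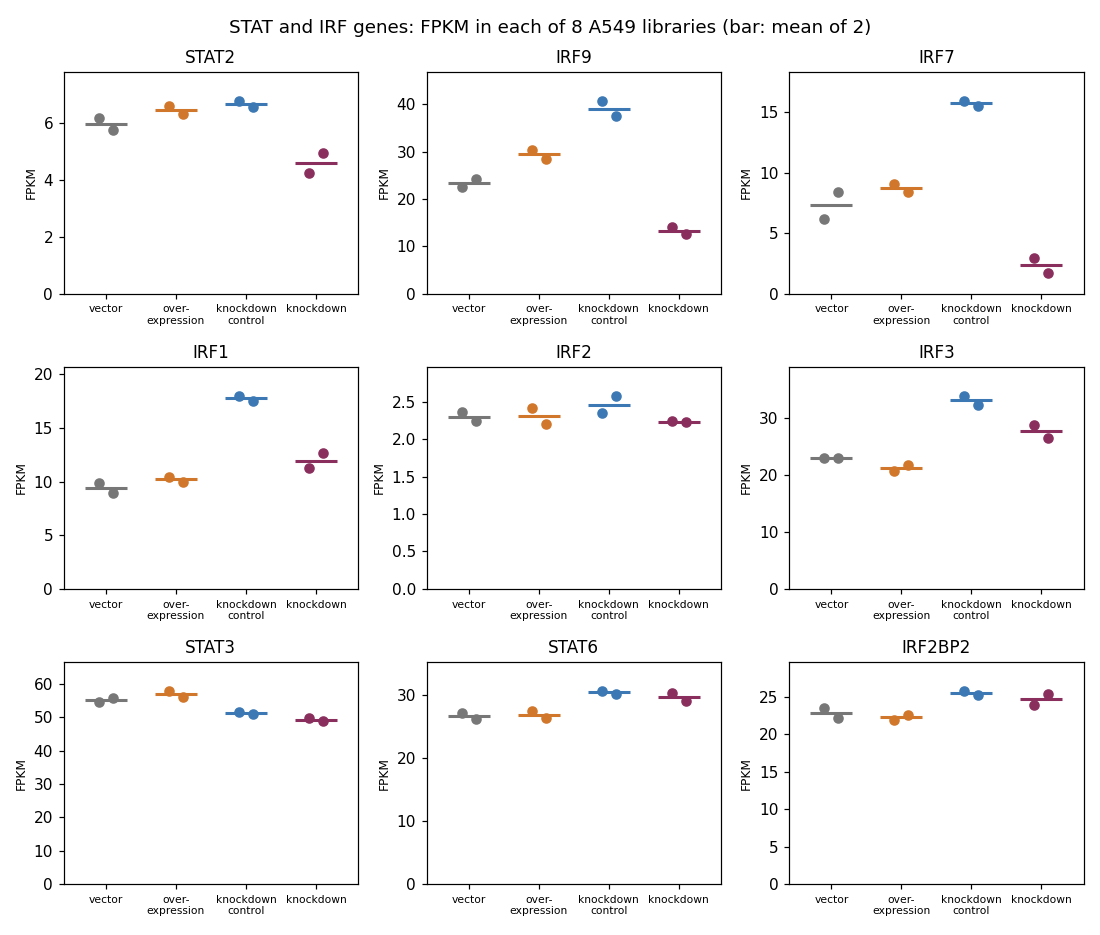
FPKM of the 9 factors in each of the 8 libraries (points, vertical axis in FPKM with a scale of its own in each panel) by group, with the group mean as a bar. IRF7 and IRF9 are lowest in the knockdown and highest in the knockdown control, with group means of 2.36 and 15.8 FPKM for IRF7 and of 13.3 and 39.1 FPKM for IRF9, whereas IRF2 stays between 2.20 and 2.58 FPKM in all 8 libraries.

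The order of the factors by FPKM differed between groups. In the overexpression libraries IRF9 stood second to STAT3. In the knockdown control IRF9 and IRF3 both lay above STAT6, and IRF7 was at percentile 78.3 of all genes against 64.2 in vector cells. In the knockdown IRF7 dropped to percentile 47, just above IRF2 at percentile 46.3, and the libraries of this pair overlapped. IRF9 there overlapped with IRF1. The reads behind these values ranged from 122, for IRF7 in a knockdown library, to 10633 for STAT3. For IRF7 that lowest count carries a counting error of 9.05%, and for the other 8 factors the counting error of the lowest library was 3.79% or less.

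Differences were tested with limma on log2(FPKM + 1) over the 10648 genes that passed the filter, with a call at a Benjamini-Hochberg adjusted p below 0.05. Every difference below is on this log2 scale, which understates changes of low genes such as IRF7 and IRF2. In the knockdown against its own control, 5 of the 9 factors fell (STAT2, IRF1, IRF3, IRF7 and IRF9) and 0 rose, where 10.9% of all genes tested were called lower and 11.3% higher. The median of the 9 differences was -0.25, against 0.02 for all genes. In the knockdown control against vector 6 rose (STAT6, IRF1, IRF3, IRF7, IRF9 and IRF2BP2) and STAT3 fell, where 36.8% of all genes were called higher and 31.8% lower. In the knockdown against vector 4 fell (STAT2, STAT3, IRF7 and IRF9) and 3 rose (STAT6, IRF1 and IRF3), where 34.1% of all genes were called higher and 28.8% lower. In both comparisons with vector most genes tested were called, and the counts of factors are to be read against those shares.

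With overexpression, 0 of the 9 factors were called in limma, where 0.0657% of all genes were called higher and 0% lower. IRF9 was the only factor with an unadjusted limma p below 0.05. With limma-voom on the recovered reads 1 factor was called, again IRF9. The difference of the effects, the knockdown effect minus the overexpression effect, was called lower for 4 factors (STAT2, IRF1, IRF7 and IRF9) and higher for 0, where 6.19% of all genes were called lower and 4.02% higher. The comparisons share libraries: the knockdown libraries enter both knockdown comparisons, the vector libraries enter all comparisons against vector, and the difference of effects uses all 8.

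**Figure D2:**
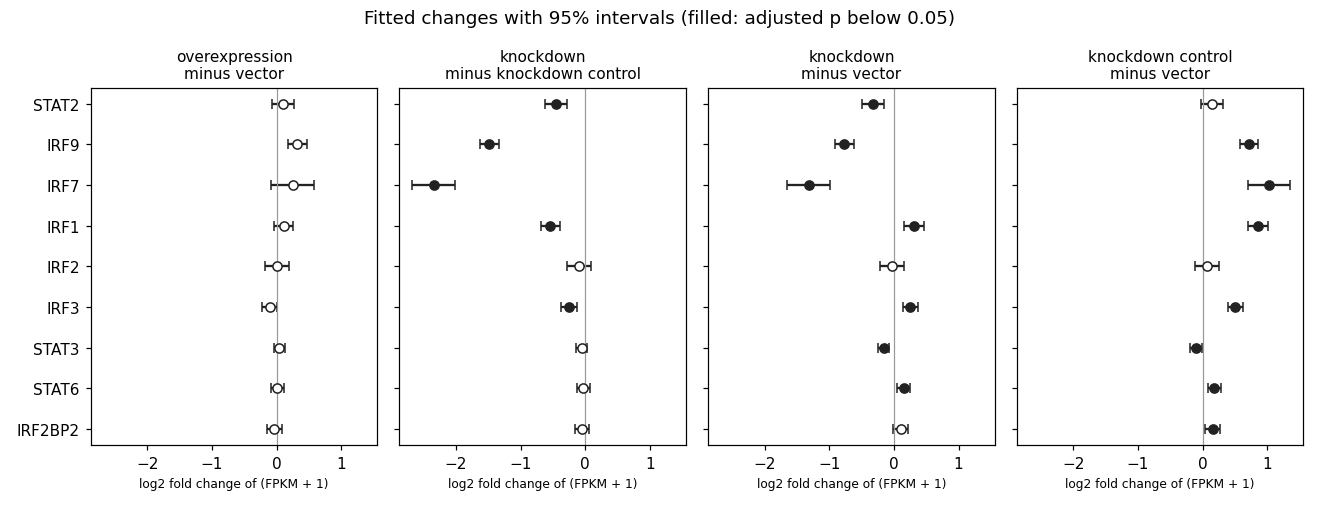
Difference in log2(FPKM + 1) of each factor (horizontal axis, log2 units) with its 95% interval from limma, for overexpression minus vector, knockdown minus knockdown control, knockdown control minus vector and knockdown minus vector. IRF7 and IRF9 lie farthest below 0 in both knockdown comparisons, at -2.34 and -1.49 against the knockdown control, while the intervals of IRF2 include 0 in all 4 comparisons.

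IRF9 and STAT2, both subunits of ISGF3, were below both control groups in the knockdown. IRF9 (chromosome 14, 24161053 to 24166565, plus strand, GRCh38 as in GENCODE 29) had 22.7 and 24.2 FPKM in the vector libraries and 30.5 and 28.5 with overexpression. It had 40.8 and 37.5 FPKM in the knockdown control and 14.1 and 12.5 in the knockdown. The 4 groups did not overlap, with the knockdown lowest, then vector, overexpression and the knockdown control. In the knockdown IRF9 fell by 1.49 ± 0.07 (SE) against the knockdown control, a ratio of mean FPKM of 0.341 (limma adjusted p = 3.79e-08). Against vector it fell by 0.77 ± 0.07 (limma adjusted p = 1.63e-06). The knockdown control was above vector by 0.72 ± 0.07 (limma adjusted p = 1.74e-06), a value that became 0.37 with a correction for gene length and GC content (limma adjusted p = 0.000678).

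With overexpression IRF9 was 0.32 ± 0.07 above vector, 29.5 against 23.4 FPKM in mean, and both libraries lay above both vector libraries. The unadjusted limma p was 0.000484, but the adjusted p was 0.147, so this difference was not called. It passed in 1 of 22 alternatives, limma-voom on recovered reads, with 0.33 and an adjusted p of 0.0366. In the annotation 1838 bases of IRF9, 48.4% of its exonic length, are shared on the same strand with AL136295.5, so how reads were assigned there can move its level.

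STAT2 (chromosome 12, 56341597 to 56360155, minus strand) is the only STAT devoted to type I and type III interferon signalling. It had 6.17 and 5.77 FPKM in the vector libraries, 6.60 and 6.30 with overexpression, and 6.78 and 6.555 in the knockdown control. The knockdown libraries were lowest, at 4.23 and 4.95 FPKM, and overlapped no other group. STAT2 fell by 0.46 ± 0.08 against the knockdown control (ratio 0.689, limma adjusted p = 0.00176) and fell by 0.32 ± 0.08 against vector (limma adjusted p = 0.00362). The remaining differences of STAT2 were not called: 0.10 ± 0.08 with overexpression (limma adjusted p = 0.898) and 0.14 ± 0.08 between the control groups (limma adjusted p = 0.134). The last of these turned to -0.05 when every library was scaled to the same FPKM sum (limma adjusted p = 0.597), and passed at 0.18 with quantile scaling (limma adjusted p = 0.0452).

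Relatives of these factors outside the 9 genes were read as well. In the knockdown against its control STAT4 (-0.12 ± 0.11), IRF2BP1 (0.06 ± 0.08) and IRF2BPL (-0.08 ± 0.07) were not called, with limma adjusted p-values of 0.475, 0.592 and 0.39. STAT5A, IRF4 and IRF8 were under the filter.

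The ratio of IRF9 to STAT2 shifted with these levels. IRF9 exceeded STAT2 in FPKM by 3.67 and 4.19 in the vector libraries and by 4.62 and 4.51 with overexpression. The ratio was 6.02 and 5.72 in the knockdown control and 3.34 and 2.53 in the knockdown. All 4 groups were apart, with the knockdown lowest. These ratios are descriptions without a test.

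**Figure D3:**
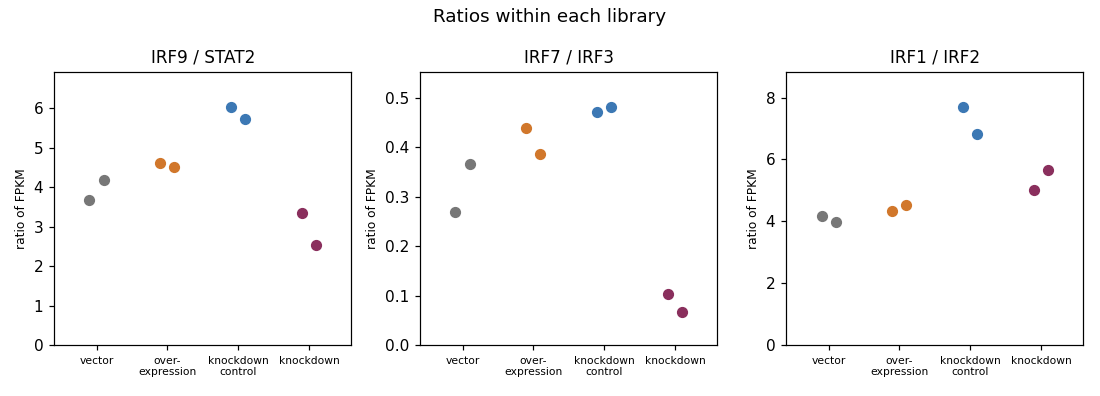
Ratio of FPKM in each library (points, by group, linear vertical axes) for IRF9 over STAT2, IRF7 over IRF3 and IRF1 over IRF2. IRF9 over STAT2 and IRF7 over IRF3 are lowest in the knockdown, at 2.53 to 3.34 and 0.0659 to 0.103, and all 3 ratios are highest in the knockdown control.

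Genes read by ISGF3 were lower in the knockdown than in either control group. Of 32 listed ISGF3 targets 25 could be tested, and 25 of these 25 fell against the knockdown control (median -1.13, against 0.02 for all genes, of which 10.9% fell) and 25 of 25 against vector (median -1.04, against 0.03, with 28.8% of all genes lower). IFIT1 and IFIT3, tetratricopeptide proteins of the antiviral response, fell against the knockdown control, with differences of -2.62 ± 0.07 and -2.35 ± 0.06. ISG15, a ubiquitin-like modifier, and IFI6 fell likewise, with -2.57 ± 0.05 and -2.61 ± 0.06. The largest of their limma adjusted p-values was 3.99e-10. The direction of the list between the control groups was mixed, with 16 higher and 4 lower in the knockdown control, where 36.8% of all genes were called higher and 31.8% lower. With overexpression 6 of 25 were called higher and 0 lower (median 0.36), where 0.0657% of all genes were called higher and 0% lower. OAS2 passed the filter only through the overexpression group. Without OAS2, 24 of 24 fell in both knockdown comparisons, with medians of -1.2 against the knockdown control and -1.04 against vector. The overexpression median of these 24 was 0.37, with 6 called higher. IRF9, STAT2 and their targets were measured in the same libraries, and whether the levels are linked was not tested.

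IRF7 and IRF3, the factors that switch on interferon genes, differed in how far they moved. IRF7 (chromosome 11, 612553 to 615999, minus strand) had 6.175 and 8.43 FPKM in the vector libraries and 9.10 and 8.43 with overexpression, and these groups overlapped. It had 16.0 and 15.6 FPKM in the knockdown control and 2.97 and 1.75 in the knockdown. No other factor of the 9 had so large a ratio of its highest to its lowest library. The knockdown libraries rest on 210 and 122 reads of IRF7, against 409 and 610 reads in the vector libraries.

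IRF7 fell by 2.34 ± 0.15 in the knockdown against its control, with a mean 6.69-fold lower (limma adjusted p = 7.85e-07), and fell by 1.32 ± 0.15 against vector, 3.1-fold lower in mean FPKM (limma adjusted p = 1.47e-05). Both calls held in 22 of 22 alternatives, with values from -2.79 to -2.08 and from -1.67 to -1.05. The knockdown control lay 1.03 ± 0.15 above vector (limma adjusted p = 7.78e-05), or 0.55 after the length and GC correction (limma adjusted p = 0.0086). The transcript of IRF7 has a GC content of 66.8%. With overexpression the difference was 0.25 ± 0.15, with a 95% interval from -0.09 to 0.58 (limma adjusted p = 0.839).

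IRF3 (chromosome 19, 49659569 to 49665875, minus strand) had 23.0 and 23.0 FPKM in the vector libraries and 20.7 and 21.8 with overexpression. It had 33.9 and 32.37 FPKM in the knockdown control and 28.8 and 26.5 in the knockdown, so the knockdown lay between the control groups. IRF3 fell by 0.25 ± 0.05 against the knockdown control (limma adjusted p = 0.00693), a ratio of 0.835. This call was lost without knockdown control replicate 1 (-0.22, limma adjusted p = 0.0512) and without knockdown replicate 2 (-0.19, limma adjusted p = 0.0748).

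Against vector, IRF3 was higher in the knockdown control, by 0.51 ± 0.05 (limma adjusted p = 5.84e-06), and in the knockdown, by 0.25 ± 0.05 (limma adjusted p = 0.00156). The knockdown value was no longer called when libraries were scaled to the same FPKM sum (0.08, limma adjusted p = 0.189) or after the length and GC correction (0.06, limma adjusted p = 0.315), and the knockdown control value became 0.30 and 0.23 in these fits, still called. With overexpression the difference was -0.11 ± 0.05 (limma adjusted p = 0.742). In the annotation 734 exonic bases of IRF3, 19.4% of its length, lie opposite exons of BCL2L12, whose strand cannot be separated where strand use is not stated. BCL2L12 had between 14.5 and 15.5 FPKM in the knockdown control and knockdown libraries and between 7.91 and 9.83 in the vector and overexpression libraries, so it was higher in the groups where IRF3 was higher. The part of this overlap in the IRF3 values was not tested.

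The ratio of IRF7 to IRF3 was 0.269 and 0.366 in the vector libraries and 0.439 and 0.386 with overexpression. It was 0.471 and 0.48 in the knockdown control, and 0.103 and 0.0659 in the knockdown. IRF3 thus stayed the more abundant of the pair in all 8 libraries, and the gap was widest in the knockdown.

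Steps on either side of these factors were read from lists: the interferons they switch on, and the sensors, adaptors and kinases that act on them. IFNB1, which encodes interferon beta, had 5.65 and 5.15 FPKM in the knockdown control, on 169 and 159 reads, and 0.231 and 0.167 FPKM in the knockdown, on 7 and 5 reads. The vector libraries held 8 reads each. For IFNL1, an interferon lambda gene, the reads numbered 156 and 160 in the knockdown control, 3 and 1 in the knockdown and 11 and 27 in the vector libraries. IFNB1 and IFNL1 passed the filter only through the knockdown control, so a large difference there had to follow, and their limma differences of -2.42 and -2.63 are given as descriptions. Against vector, IFNB1 in the knockdown was not called (-0.08 ± 0.11, limma adjusted p = 0.507), while IFNL1 was lower by 0.63 ± 0.13 (limma adjusted p = 0.00139). The IFNL1 means were 0.683 FPKM in vector and 0.0718 FPKM in the knockdown, both under the filter, so this difference is a description too.

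Of 14 sensors, adaptors and kinases that could be tested, 5 fell and 1 rose in the knockdown against its control (median -0.08, against 0.02 for all genes, of which 10.9% were called lower and 11.3% higher). The RNA sensors DDX58 (RIG-I) and IFIH1 (MDA5) fell, with differences of -1.05 ± 0.08 and -1.60 ± 0.10, and of -1.003 ± 0.08 and -1.32 ± 0.10 against vector. Both are also interferon-induced genes, and IFIH1 stands in the ISGF3 list too. MYD88, an adaptor of Toll-like receptors, fell by 0.40 ± 0.06 and the kinase IRAK1 fell by 0.17 ± 0.04 against the knockdown control. Compared with vector, MYD88 was not called in the knockdown (0.11 ± 0.06) and IRAK1 was 0.39 ± 0.04 higher. With overexpression 0 of the 14 were called, where 0.0657% of all genes were called higher and 0% lower.

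IRF1 (chromosome 5, 132481609 to 132490798, minus strand) was high in the knockdown control alone, and the knockdown again lay between the controls. IRF1 had 9.86 and 8.93 FPKM in the vector libraries, 10.4 and 9.95 with overexpression, 17.98 and 17.55 in the knockdown control, and 11.2 and 12.6 in the knockdown. The knockdown control did not overlap any other group. IRF1 fell by 0.54 ± 0.07 in the knockdown against its control (ratio 0.672, limma adjusted p = 0.000266) and rose by 0.85 ± 0.07 in the knockdown control against vector (limma adjusted p = 5.68e-07). Against vector the knockdown was higher by 0.31 ± 0.07 (limma adjusted p = 0.00193), a call that was lost when libraries were scaled to the same FPKM sum (0.15, limma adjusted p = 0.0914). With overexpression the difference was 0.11 ± 0.07 (limma adjusted p = 0.849). In the annotation C5orf56 and AC116366.3 lie opposite 22% and 6.01% of the exonic bases of IRF1.

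IRF2 (chromosome 4, 184387713 to 184474580, minus strand), the competitor of IRF1, was not called in any of the 5 comparisons. Its libraries ranged from 2.20 to 2.58 FPKM, and in the knockdown against its control its difference was -0.10 ± 0.08, with a 95% interval from -0.28 to 0.09 (limma adjusted p = 0.446). The interval does not exclude a change of that size. The ratio of IRF1 to IRF2 was 4.18 and 3.98 in the vector libraries, 4.33 and 4.53 with overexpression, 7.68 and 6.81 in the knockdown control and 5.01 and 5.67 in the knockdown. The knockdown lay above vector and below its control. The size of these ratios depends on the lengths used for FPKM, while the order of the groups does not.

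Most tested targets of IRF1 and of GAS sites were lower in the knockdown than in its control. Of 19 listed 12 could be tested, and SOCS1 among them passed the filter only through the knockdown control, so that its fall there had to follow. Of the other 11, 10 fell (median -0.36, against 0.02 for all genes, of which 10.9% fell). TAP1, the peptide transporter of antigen presentation, fell by 0.47 ± 0.05. The immunoproteasome subunits PSMB9 and PSMB10 fell, with differences of -0.53 ± 0.08 and -0.36 ± 0.06, and B2M, the light chain of MHC class I, fell by 0.22 ± 0.03. Against vector 4 of these 11 were higher and 3 lower, near the shares of all genes (34.1% higher and 28.8% lower): PSMB10 was 0.50 ± 0.06 higher and B2M 0.23 ± 0.03 higher, while TAP1, at -0.12 ± 0.05, was not called (limma adjusted p = 0.063). In the knockdown control 7 of the 11 were higher and 1 lower than in vector, where 36.8% of all genes were higher and 31.8% lower.

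STAT3 and STAT6, the factors of other cytokine families, and IRF2BP2 had small differences. STAT3 (chromosome 17, 42313324 to 42388568, minus strand) had between 48.7 and 57.8 FPKM over all 8 libraries. It was not called in the knockdown against its control (-0.06 ± 0.04, limma adjusted p = 0.351) or with overexpression (0.04 ± 0.04, limma adjusted p = 0.921). Against vector it fell by 0.16 ± 0.04 in the knockdown (limma adjusted p = 0.00432), a value of -0.33 when libraries were scaled to the same FPKM sum. It also fell by 0.11 ± 0.04 in the knockdown control (limma adjusted p = 0.0357), a call that was lost in 8 of 22 alternatives.

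STAT6 (chromosome 12, 57095408 to 57132139, minus strand) ranged from 26.2 to 30.6 FPKM. It was 0.18 ± 0.05 higher in the knockdown control than in vector (limma adjusted p = 0.00534) and 0.15 ± 0.05 higher in the knockdown (limma adjusted p = 0.0171), and its knockdown libraries overlapped those of the knockdown control. Scaling libraries to the same FPKM sum turned both values below 0, to -0.03 and -0.02. In that scaling the median over all genes of the comparisons with vector also shifted, to -0.15 for the knockdown control and -0.12 for the knockdown. Within the pair of control and knockdown, the difference was -0.03 ± 0.05, with a 95% interval from -0.14 to 0.07 (limma adjusted p = 0.685).

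IRF2BP2 (chromosome 1, 234604269 to 234609525, minus strand) ranged from 21.9 to 25.8 FPKM. It was called in 1 comparison, the knockdown control against vector, by 0.15 ± 0.05 (limma adjusted p = 0.0207), which turned to -0.06 with the FPKM sums made equal and was not called with median-of-ratios scaling (0.09, limma adjusted p = 0.13). In the knockdown against its control the difference was -0.05 ± 0.05, and with overexpression -0.04 ± 0.05, with limma adjusted p-values of 0.544 and 0.972. In the annotation 14.7% of its exonic bases lie opposite AL160408.2.

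Targets of STAT3 moved in part where STAT3 itself did not pass. Of 16 that could be tested, of 21 listed, 8 fell and 1 rose in the knockdown against its control (median -0.19, against 0.02 for all genes, of which 10.9% fell and 11.3% rose). FOS, an AP-1 subunit, fell by 2.32 ± 0.10, and the feedback inhibitor SOCS3 fell by 0.53 ± 0.10. The C/EBP factor CEBPB and the survival gene BCL2L1 fell less far, with differences of -0.51 ± 0.05 and -0.23 ± 0.04. CCND1, which encodes cyclin D1, was not called (-0.09 ± 0.04, limma adjusted p = 0.132). In the knockdown control 11 of the 16 were higher than in vector and 2 lower, where 36.8% of all genes were higher and 31.8% lower. FOS was 3.03 ± 0.10 above vector there. In the knockdown 9 of the 16 were also higher than in vector and 2 lower (median 0.26), where 34.1% of all genes were higher and 28.8% lower. FOS was 0.71 ± 0.10 and CEBPB 0.155 ± 0.05 above vector in the knockdown, while SOCS3 and BCL2L1 were not called. Most of these genes answer to other factors as well. Of 9 STAT6 targets, SOCS1 and IL4R could be tested, and IL4R fell by 0.23 ± 0.08 against the knockdown control (limma adjusted p = 0.045). The knockdown was still 0.28 ± 0.08 above vector for IL4R. SOCS1 passed the filter only through the knockdown control, with a mean of 3 FPKM there and 0.551 FPKM in the knockdown.

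Few receptors and Janus kinases were called in the knockdown against its control. Of 14 that could be tested 2 rose (IL10RB by 0.19 ± 0.06 and IL6ST by 0.21 ± 0.06) and 2 fell (IFNGR2 by 0.19 ± 0.06 and IL4R), with a median of 0.06. These counts are near the shares of all genes (11.3% higher and 10.9% lower). IL10RB, IFNGR2 and IL4R lay just under the threshold, with limma adjusted p-values of 0.0446, 0.0499 and 0.045, against 0.0253 for IL6ST. IL10RB is a shared chain of the interferon lambda receptor and IL6ST, or gp130, the signal chain of the IL-6 family. JAK1, the kinase common to all these receptors, was not called (0.04 ± 0.04, limma adjusted p = 0.505), nor was TYK2 (-0.02 ± 0.06, limma adjusted p = 0.886). Against vector JAK1 was lower in the knockdown control and in the knockdown, with differences of -0.75 ± 0.04 and -0.72 ± 0.04. Of the 14, 3 were higher and 7 lower in the knockdown than in vector, where 34.1% of all genes were higher and 28.8% lower. IL6ST was among the lower (-1.04 ± 0.06). The higher were IL10RB (0.28 ± 0.06), IFNGR2 (0.48 ± 0.06) and IL4R (0.28 ± 0.08), so IL6ST, IFNGR2 and IL4R changed direction with the control used. Among negative regulators of STAT signalling, SOCS1 passed the filter only through the knockdown control and is left out. Of the other 14 tested, 3 fell and 3 rose against the knockdown control, where 10.9% of all genes fell and 11.3% rose. USP18, which restrains the interferon receptor, fell by 0.71 ± 0.08, and the phosphatase PTPN11 rose by 0.21 ± 0.04. Both were lower in the knockdown than in vector, with differences of -0.30 ± 0.08 for USP18 and -0.36 ± 0.04 for PTPN11.

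**Figure D4:**
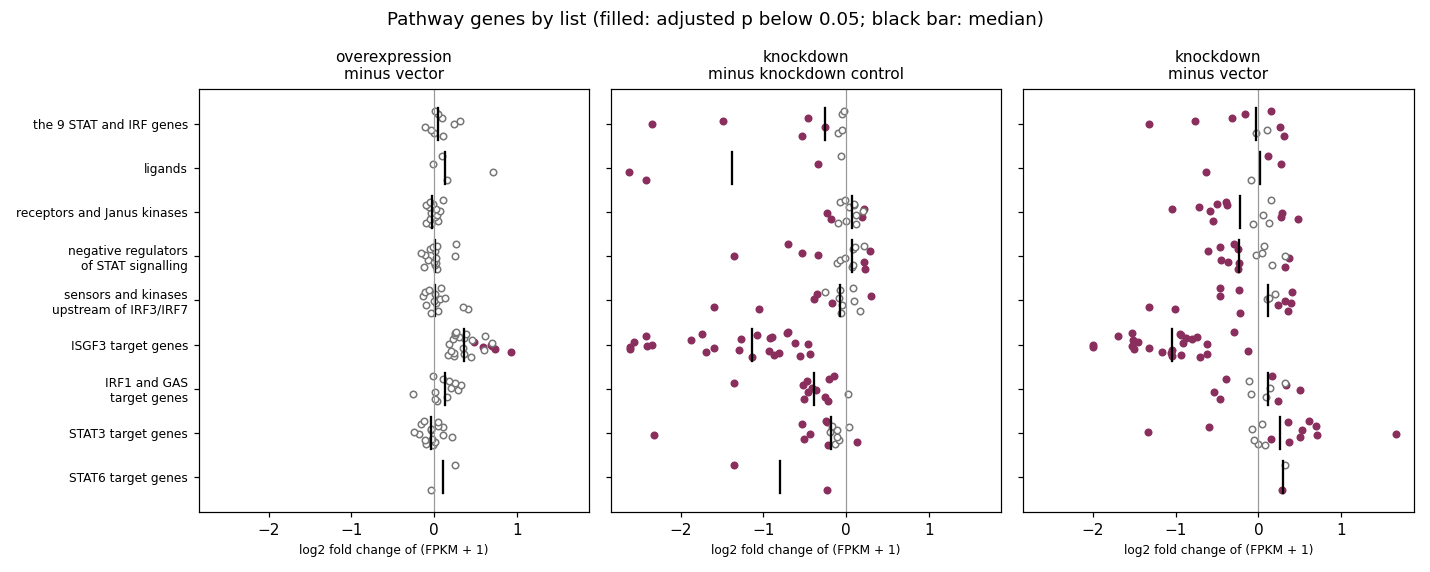
Difference in log2(FPKM + 1) of every tested gene of the 9 factors and of 8 pathway lists (points, filled where the limma adjusted p is below 0.05; horizontal axis in log2 units), with the list median as a bar, for overexpression minus vector, knockdown minus knockdown control and knockdown minus vector. All 25 tested ISGF3 targets lie below 0 in both knockdown comparisons, with medians of -1.13 and -1.04. In the overexpression comparison all 25 lie above 0 with 6 called higher, where 0.0657% of all genes were called higher. IFNB1, IFNL1, SOCS1 and OAS2, which passed the filter only through the group where they are highest, are drawn too.

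The genes whose patterns were most like those of the factors were taken by Pearson correlation of log2(FPKM + 1) over the 8 libraries. The points are 4 groups of 2 and share library and depth, so the values are descriptions. IRF9 was most like ISG15 (r = 0.994), AEN (0.99) and RSAD2 (0.989). IRF7 was most like PPM1D (0.988), IRF9 (0.987) and MXD1 (0.98). STAT2 was most like POLDIP2 (0.972), OAS1 (0.966) and IFIT2 (0.964). Of these neighbours ISG15, RSAD2, OAS1 and IFIT2 stand in the ISGF3 list, and IRF9 is itself one of the factors. AEN, PPM1D, MXD1 and POLDIP2 are in none of the lists, and IRF7 had no neighbour from the ISGF3 list. IRF1 was most like TNFAIP3 (0.987), TRAF1 (0.986) and SERTAD1 (0.986), and TNFAIP3 and TRAF1 are known targets of NF-kappaB.

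The remaining factors had other neighbours. IRF3 was most like VIM (0.991), SMTN (0.99) and AP2M1 (0.99), and STAT6 was most like NUDT16L1 (0.996), LZTS3 (0.994) and CASP10 (0.994). STAT3 was nearest to AKAP8L (0.99), DCLRE1C (0.986) and STX3 (0.982). IRF2BP2 was nearest to PAAF1 (0.992), CCDC32 (0.98) and ALDH4A1 (0.977). IRF2, which hardly varied, had the lowest values: CCDC142 (0.923), IGF2BP2 (0.92) and BTN2A2 (0.901).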

How the data were processed

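RNA of 8 libraries was sequenced, and the values the authors deposited are FPKM for 17056 genes, in columns named as in the labels. The RNA was total RNA, per the labels' protocols. The submitters' processing notes name the build hg38 (GRCh38), the tools HISAT2, HTSeq and featureCounts, and R 3.2.0, with no roles. The sources used here do not give the annotation, the filters or the strand use. FPKM divide by a library total, so a large change in some genes shifts others.

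Whole reads were recovered from the FPKM steps for all but 1 gene (tolerance 0.02 reads). Tests used limma 3.58.1 (R 4.3.3; linear model, contrasts and moderated statistics with trend, two-sided) on log2(FPKM + 1), for 10648 genes whose mean reached 1 FPKM, with all 4 groups in one fit and 4 residual degrees of freedom. P-values were adjusted (Benjamini-Hochberg) over all genes tested. FPKM are given per library or as group means, and differences with their SE. With 2 libraries a group, no exact permutation test can pass the threshold. Replicates differed by more than counting noise (chi-square per degree of freedom of 5.27 or more) and were kept apart. The code was tested on simulated data.

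The 9 genes, the pathway lists and the tests were chosen with earlier results of these data known. Named genes are all 9 factors, from each list up to 4 genes with the smallest p in knockdown against its control and up to 2 in overexpression, and the 3 genes most alike in pattern. The GAS and mirrored-core searches and the list counts that leave out genes passing the filter only through their highest group were added after the data were seen. Some genes of the lists are not reported here. Positions come from GENCODE 29 and promoters from RefSeq. Alternatives were pseudocounts of 0.1 and 0.5, no filter or a filter at 5 FPKM, 3 other scalings, a length and GC correction (98% of genes had both), a replicate block, other eBayes settings, limma-voom on recovered reads, the compared libraries alone, and leaving out each library.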

Additional observations from a re-analysis of the deposited data

Results flagged for a closer look

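The knockdown effect and the overexpression effect differed, by a limma test of the difference itself, for 4 of the 9 factors. All 4 were called lower, where 6.19% of all genes tested were called lower and 4.02% higher. The difference (knockdown minus its control, minus overexpression minus vector, on the log2 scale) was -2.59 ± 0.21 for IRF7 (limma adjusted p = 1.38e-05) and -1.81 ± 0.10 for IRF9 (limma adjusted p = 3.85e-07). It was -0.65 ± 0.10 for IRF1 (limma adjusted p = 0.00181) and -0.56 ± 0.11 for STAT2 (limma adjusted p = 0.00871). In each of the 4 genes the knockdown effect was below 0 and the overexpression effect above 0, the latter not called. Each effect is taken against its own control, and for IRF1, IRF7 and IRF9 those controls differed too, the knockdown control being higher than vector. Groups of 2 libraries could not be searched for single outlying libraries.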

How the results depend on the processing

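Of the 45 differences of the 9 factors, 28 kept their direction and their side of the threshold in every alternative run, among them all 5 comparisons of IRF7 and the knockdown effects of IRF9, STAT2 and IRF1 against the knockdown control. Over the 976 alternative values, 26 were no longer called, 4 became called and 28 changed sign, the largest of the last being 0.0875 in size. Leaving out 1 library in turn gave 0 to 0 factors called with overexpression, 4 to 5 in knockdown against its control, 5 to 7 in knockdown control against vector, 6 to 7 in knockdown against vector and 4 to 4 for the difference of effects. With the FPKM sums made equal (TPM scaling), 4 factors in place of 7 were called in knockdown against vector, and limma-voom on recovered reads called 1 in place of 0 with overexpression. Over all genes, overexpression called 0 (no filter) to 27 (limma-voom) genes, against 7, the knockdown against its control 1176 (without knockdown replicate 2) to 2894, against 2369 (1323 without knockdown control replicate 2 and 1494 without knockdown replicate 1), and the difference of effects 609 to 1697, against 1087. The share of calls that were higher moved from 50.8% to 62.1% (median-of-ratios) and 66.4% (TPM) for knockdown against its control, from 53.6% to 31.7% (TPM) for knockdown control against vector, from 54.2% to 31.9% (TPM) for knockdown against vector, from 39.4% to 52%, 57.4% and 52.4% (median-of-ratios, TPM and limma-voom) for the difference of effects, and from 100% to 81.5% (limma-voom) with overexpression.

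Of the results that changed sign, 3 had been called before the change, all under TPM scaling: STAT6 and IRF2BP2 in knockdown control against vector and STAT6 in knockdown against vector. With overexpression IRF2 was -0.00098 (median-of-ratios), -0.0079 (quantile), -0.0030 (TPM), -0.024 (without vector replicate 2) and -0.047 (without overexpression replicate 1), STAT6 -0.015 and -0.021 without those same libraries, and IRF2BP2 0.0053 without vector replicate 1; leaving out single libraries, the ranges were -0.047 to 0.049 for IRF2, -0.021 to 0.043 for STAT6 and -0.077 to 0.0053 for IRF2BP2. In knockdown against its control STAT6 was 0.010 (TPM) and 0.021 (length and GC correction, with or without the replicate block). With TPM scaling the knockdown control against vector gave -0.052 for STAT2, -0.031 for STAT6, -0.0875 for IRF2 and -0.058 for IRF2BP2, and the knockdown against vector -0.021 for STAT6 and -0.065 for IRF2BP2. The length and GC correction gave -0.0024 for IRF2 in the control comparison, with or without the block. The difference of effects was 0.0050 (TPM) and 0.017 (length and GC, with or without the block) for STAT6, and for IRF2BP2 0.016 (median-of-ratios), 0.0016 (quantile), 0.034 (TPM), 0.028 (without vector replicate 2), 0.0086 (without overexpression replicate 2) and 0.028 (without knockdown replicate 1), with a lowest value of -0.054 without vector replicate 1. The cause was not tested.

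Replicate numbers did not pair the samples: the correlations of replicate differences between groups ran from -0.061 to 0.062. The replicate block changed 0 calls of the 9 factors, with 5 in knockdown against its control, 7 in knockdown control against vector, 7 in knockdown against vector, 4 for the difference of effects and 0 with overexpression. IRF2 gives no value under the filter at 5 FPKM. The 122 reads of IRF7 in a knockdown library limit its precision most.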
